A study of Sus scrofa with 18 samples.

Results

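The enzymes that write, copy and remove DNA methylation, and the proteins that guard methylation at imprinted genes, were followed through the first cleavages of porcine parthenogenetic embryos. The set was 9 named genes (DNMT1, DNMT3A, DNMT3B, UHRF1, TET1, TET2, TET3, ZFP57 and TRIM28), chosen by name from the expression table of the study. A row with that name was found for 8 of the 9 among 20983 genes, and all 8 passed the filter on low counts that kept 13187 genes for testing. TET2 had no row with its name. An unnamed row, ENSSSCG00000009157, covers 94.0% of the interval that RefSeq gives to TET2 on chromosome 8, and its values are given separately and are not counted among the 8.

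The study asked whether the medium in which oocytes mature alters transcription in the early embryo. Immature oocytes from slaughterhouse ovaries of gilts were matured in DMEM, which held gonadotropins, EGF, IGF1 and FGF, or in FLI, a TCM 199 medium with gonadotropins, EGF, FGF2, IGF1 and LIF. All oocytes were then denuded of cumulus cells, activated with ionomycin and 6-DMAP without sperm and cultured alike, so every embryo carried maternal chromosomes only and no paternal imprint, which limits these embryos as a model of the imprint guarding proteins. RNA of 18 pools of 20 embryos was sequenced, 3 pools for each of 6 groups: 2-cell DMEM, 2-cell FLI, 4-cell DMEM, 4-cell FLI, 8-cell DMEM and 8-cell FLI.

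DNA methylation in mammals is copied to the new strand after replication by DNMT1, which UHRF1 brings to half-methylated sites, and is laid down anew by DNMT3A and DNMT3B. The TET enzymes oxidise methylated cytosine and so start its removal. Most methylation of the egg genome is lost during cleavage, while imprinted regions keep theirs through ZFP57, a zinc finger protein that binds the methylated copy and recruits the corepressor TRIM28.

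Libraries held 1737985 to 6781185 counts, and where a gene had 0 counts the limit, set at 3 counts and for counting error only, was 0.442 to 1.73 CPM, counts scaled to a common library total. Levels are given as CPM after TMM scaling, and differences as log2 fold changes with the standard error (SE) of edgeR's quasi-likelihood fit and a Benjamini-Hochberg p adjusted over the 13187 genes, with calls at an adjusted p under 0.05. Whether replicate pools stem from separate ovary collections is not stated, and p-values therefore reflect pool-to-pool spread, which may be technical. The summed CPM of 9 oocyte and embryo markers lay between 5169 and 5682 in the 2-cell libraries, between 1083 and 3039 in the 4-cell libraries and between 282 and 3404 in the 8-cell libraries, and FIGLA was at 0 in 8 libraries. The summed CPM of 10 cumulus and granulosa markers was at most 39.8 and that of 9 blood and connective tissue markers at most 38.7 in any library. That cumulus sum was 3.46 to 10.6 in the 2-cell, 11.08 to 30.7 in the 4-cell and 18.2 to 39.8 in the 8-cell libraries. Of the 3 cumulus markers that were tested 2 rose from the 2-cell to the 4-cell stage in each medium. The blood and connective tissue sum was 8.07 to 16.01 in the 2-cell, 12.8 to 37.3 in the 4-cell and 17.9 to 38.7 in the 8-cell libraries, and of its 6 tested markers 2 rose over that step in DMEM and 1 in FLI. The part of either list in the results was not tested. Some 8-cell libraries differed from their group: DMEM replicate 1 had the fewest counts, 1737985, FLI replicate 2 the highest oocyte marker sum after the 2-cell stage, and FLI replicate 3 the lowest sum and a TMM factor of 1.27, against 0.900 to 1.05 in the other 17. Results without these 3, a choice made with earlier results known, are given where they change a call.

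DNMT1, the maintenance methyltransferase (ENSSSCG00000013659, Sscrofa11.1 chromosome 2, 68981566 to 69029844, minus strand), had more counts than any other gene in each of the 6 2-cell libraries. Its level was 29749, 26414 and 25915 CPM in the 2-cell DMEM pools and 27078, 26197 and 23481 CPM in the 2-cell FLI pools. Single libraries gave it between 2.47% of all counts (95% Wilson interval 2.45% to 2.48%) and 3.01% (2.997% to 3.03%), with intervals that cover counting error only and are narrower than the spread between pools. The 6 pools lay close together, and no later library reached their range.

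At the 4-cell stage DNMT1 was at 2768, 3352 and 5358 CPM in DMEM and at 2179, 3256 and 4177 CPM in FLI. All 4-cell pools lay below all 2-cell pools. DNMT1 fell by 2.84 on the log2 scale in DMEM (SE 0.60, adjusted p = 0.000532), or 7.15-fold, and 7.99-fold in FLI (SE 0.61 on the log2 scale, adjusted p = 0.000355). Its place among all genes by counts moved from 1 to between 11 and 20. In a bulk pool fewer intact cells and less RNA per cell cannot be told apart, and CPM give the share of a transcript in the library, not the amount per embryo.

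UHRF1 (ENSSSCG00000013517, chromosome 2, 73898071 to 73931769, minus strand), which recruits DNMT1 to newly replicated DNA, fell with it. The 2-cell pools had 729, 780 and 726 CPM in DMEM and 765, 769 and 648 CPM in FLI. The 4-cell pools had 132, 197 and 201 CPM in DMEM and 139, 170 and 253 CPM in FLI, with no overlap between the stages. The log2 fold change was -2.08 in DMEM (SE 0.50, adjusted p = 0.00146) and -1.95 in FLI (SE 0.49, adjusted p = 0.00236).

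The de novo enzymes parted at this step. DNMT3B (ENSSSCG00000007252, chromosome 17, 36345816 to 36386072, plus strand) was at 339, 363 and 350 CPM in 2-cell DMEM pools and at 352, 315 and 319 CPM in 2-cell FLI pools. It was at 46.6, 62.3 and 86.4 CPM in 4-cell DMEM pools and at 31.7, 74.7 and 89.2 CPM in 4-cell FLI pools, well below every 2-cell pool. It fell by 2.43 on the log2 scale in DMEM (SE 0.54, adjusted p = 0.000805) and by 2.34 in FLI (SE 0.54, adjusted p = 0.00112).

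DNMT3A (ENSSSCG00000029413, chromosome 3, 113528926 to 113603087, plus strand) had 307, 269 and 252 CPM in 2-cell DMEM pools and 110, 130 and 206 CPM in 4-cell DMEM pools. In FLI it had 257, 226 and 220 CPM at the 2-cell stage and 125, 176 and 229 CPM at the 4-cell stage. The stages were apart in DMEM, and in FLI the highest 4-cell pool lay within the 2-cell range. Values of -0.89 in DMEM on the log2 scale (SE 0.50, adjusted p = 0.122, 95% interval -1.93 to 0.15) and of -0.41 in FLI (SE 0.49, adjusted p = 0.485, interval -1.44 to 0.63) did not pass the test in the fit of all 18 libraries. The DMEM value passed when only the groups compared were fitted (-0.89, adjusted p = 0.000661), as did the FLI value (-0.42, adjusted p = 0.0353). The DMEM value also passed under 6 of the other 27 alternatives. Among these were leaving out 8-cell FLI replicate 2 (-1.02, adjusted p = 0.0187), replicate 3 (-1.003, adjusted p = 0.0189) or the 3 8-cell libraries named above (-0.90).

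The log2 ratio of DNMT3A to DNMT3B counts within a library, which no scaling between libraries can alter, was -0.54 to -0.14 over the 6 2-cell libraries and 1.06 to 1.98 over the 6 4-cell libraries. The mean rose from -0.42 ± 0.14 (SD, n = 6) to 1.35 ± 0.32 (SD, n = 6), by 1.53 in DMEM and 2.01 in FLI. These ratios are of counts, not per length, so they show the change between the stages and not which enzyme had more transcripts. Such ratios were compared for all 28 pairs of the 8 genes, a test added after the data were seen, with libraries of both media pooled. In 27 of the 28 pairs the ratio differed between the stages (two-sided exact permutation tests, 6 libraries against 6, adjusted over the 28 pairs). Ratios of other genes were not compared, and with 35.2% of all tested genes higher and 28.4% lower at the 4-cell stage in DMEM this count marks nothing particular to the 8 genes. For DNMT3A to DNMT3B the p was 0.00216, the smallest that 6 against 6 libraries can give, and 0.00242 after adjustment.

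The pair whose ratio did not pass was UHRF1 to TET3. Its log2 ratio was 0.89 ± 0.15 (SD, n = 6) at the 2-cell stage and 0.72 ± 0.25 (SD, n = 6) at the 4-cell stage, a difference of -0.17 (exact permutation p = 0.175). The ratio of DNMT1 to UHRF1 fell by 0.92 on the log2 scale, by 0.79 in DMEM and 1.05 in FLI (exact permutation p = 0.00216, adjusted p = 0.00242). The share of DNMT1 in the libraries thus fell further than that of its partner.

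Among the TET enzymes, TET3, the form stored in the mouse egg (here ENSSSCG00000008292, chromosome 3, 68918933 to 69020986, minus strand), was at 424, 419 and 409 CPM in 2-cell DMEM pools and at 446, 340 and 346 CPM in 2-cell FLI pools. At the 4-cell stage it was at 95.2, 96.7 and 114 CPM in DMEM and at 90.0, 126 and 130 CPM in FLI, and the stages did not overlap. It fell by 2.03 on the log2 scale in DMEM (SE 0.44, adjusted p = 0.000687) and by 1.71 in FLI (SE 0.44, adjusted p = 0.00267).

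TET1 (ENSSSCG00000010241, chromosome 14, 71675671 to 71815618, plus strand), known in mouse as the TET enzyme of pluripotent cells, was rare. It had 3.89, 10.9 and 8.13 CPM in 2-cell DMEM pools and 8.02, 8.06 and 8.68 CPM in 2-cell FLI pools, from 18 to 57 counts a library. At the 4-cell stage it had 7.97, 17.05 and 14.9 CPM in DMEM and 6.50, 5.85 and 12.4 CPM in FLI, and both stages overlapped. The log2 fold change was 0.79 in DMEM (SE 0.52, adjusted p = 0.193, 95% interval -0.31 to 1.88) and -0.01 in FLI (SE 0.53, adjusted p = 0.988, interval -1.13 to 1.10). The ratio of TET1 to TET3 within a library rose by 2.25 on the log2 scale (exact permutation p = 0.00216, adjusted p = 0.00242), by 2.87 in DMEM and 1.64 in FLI.

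The unnamed row at the position of TET2 (116419568 to 116545300, minus strand) held a steadier level. Its mean was 35.7 ± 5.95 CPM in 2-cell DMEM and 46.3 ± 12.6 CPM in 4-cell DMEM (SD, n = 3 each). In FLI the means were 38.9 ± 3.88 and 50.8 ± 4.08 CPM (SD, n = 3 each). The log2 fold change was 0.37 in DMEM (adjusted p = 0.155) and 0.38 in FLI (adjusted p = 0.148), and no comparison called this row.

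ZFP57 and TRIM28, the imprint guards among the 8 genes, went the other way. ZFP57 (ENSSSCG00000001247, chromosome 7, 22605125 to 22612064, minus strand), the zinc finger protein that recognises methylated imprinting control regions, had 11, 10 and 11 counts in the 2-cell DMEM pools and 5, 2 and 0 counts in the 2-cell FLI pools. At the 4-cell stage it had 482, 340 and 286 counts in DMEM and 394, 242 and 318 counts in FLI. The change was from near the detection floor in every 2-cell pool to 67.5 to 113 CPM in DMEM and 56.6 to 86.0 CPM in FLI. It rose by 5.51 on the log2 scale in DMEM (SE 0.52, adjusted p = 4.94e-08) and by 7.12 in FLI (SE 0.63, adjusted p = 1.9e-08), and the size of the FLI value rests on 7 counts in the 2-cell pools. It was 8.36 without 2-cell FLI replicate 1 and 6.51 without 2-cell FLI replicate 3.

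MOG, a gene on the opposite strand, overlaps 82.0% of the ZFP57 row, and the sources do not say whether counting used strand, so reads of both genes may not be fully told apart. MOG had 13 counts in all over each set of 3 2-cell pools, and 172 and 115 counts over the 4-cell DMEM and FLI pools, where ZFP57 had 1108 and 954. It rose by 4.13 on the log2 scale in DMEM (adjusted p = 5.24e-06) and by 3.23 in FLI (adjusted p = 8.4e-05). Its part in the ZFP57 counts was not tested.

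TRIM28 (ENSSSCG00000037920, chromosome 6, 63094648 to 63101531, plus strand), the corepressor that ZFP57 recruits, was present at the 2-cell stage at 49.8, 64.5 and 49.8 CPM in DMEM and 53.0, 53.3 and 50.6 CPM in FLI. The 4-cell pools had 273, 285 and 227 CPM in DMEM and 306, 257 and 206 CPM in FLI, all above every 2-cell pool. It rose by 2.26 on the log2 scale in DMEM (SE 0.23, adjusted p = 1.55e-07) and by 2.29 in FLI (SE 0.23, adjusted p = 1.43e-07), or 4.79-fold and 4.90-fold. The within-library log2 ratio of ZFP57 to TRIM28 rose by 3.93, from -5.62 ± 1.42 to -1.69 ± 0.37 (SD, n = 6 each, exact permutation p = 0.00216, adjusted p = 0.00242).

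**Figure D1:**
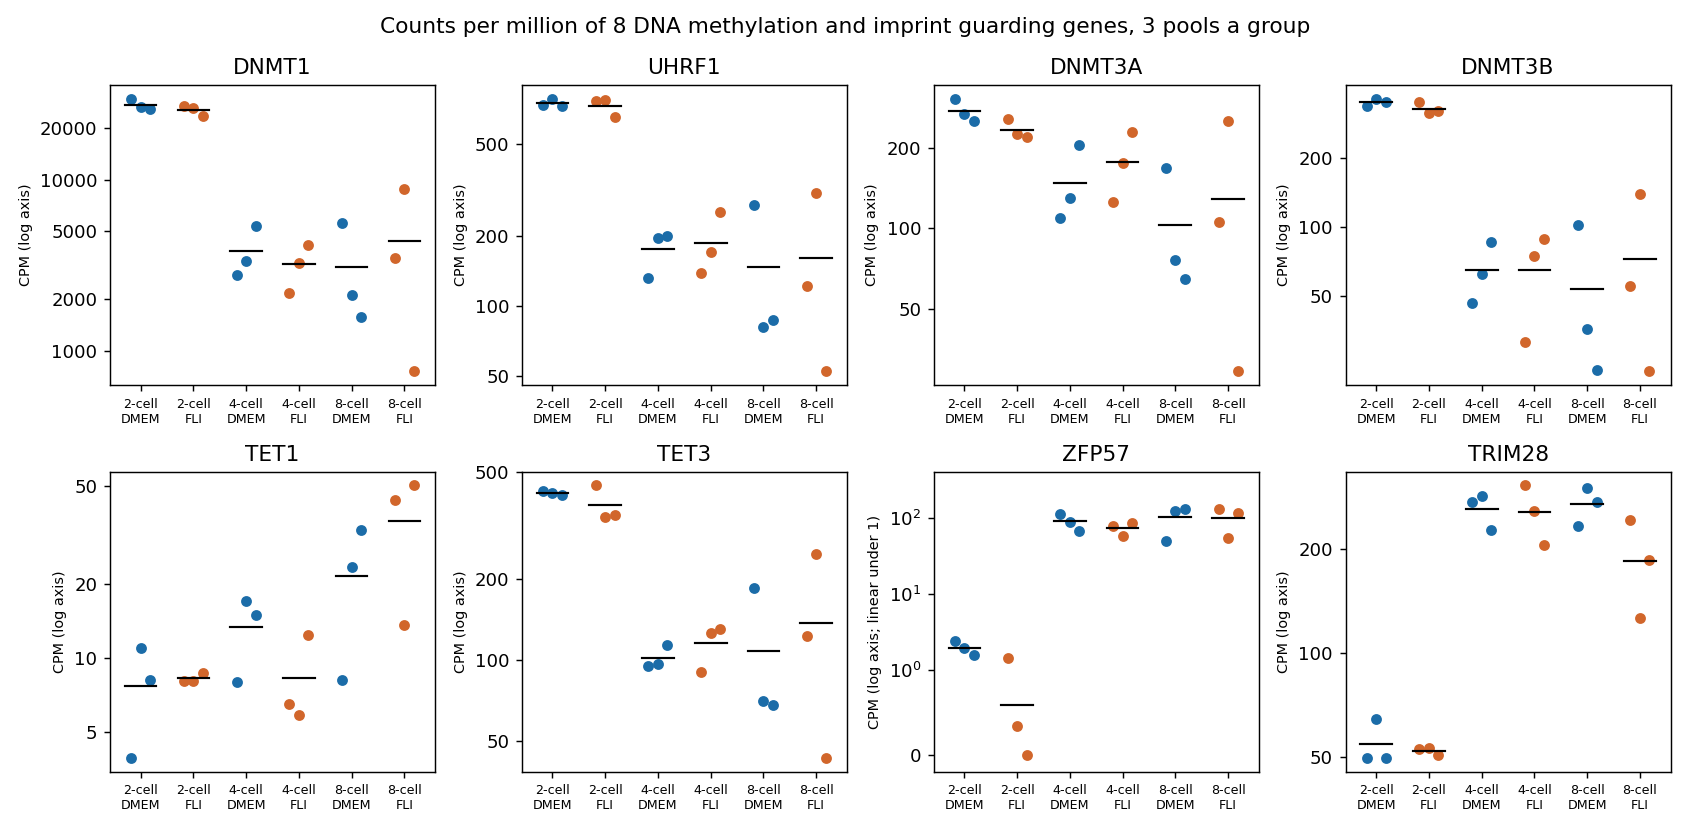
Each point is the CPM of a gene in 1 pool of 20 embryos (log axis; for ZFP57 linear under 1), the 6 groups of stage and medium stand on the horizontal axis (blue DMEM, orange FLI) and black lines are group means. DNMT1, UHRF1, DNMT3B and TET3 are high in all 2-cell pools, ZFP57 and TRIM28 are low there, and the 8-cell pools of a group spread widely.

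In each medium, 2 of the 8 genes thus rose (ZFP57 and TRIM28) and 4 fell (DNMT1, UHRF1, DNMT3B and TET3) between the 2-cell and the 4-cell stage. Of all tested genes 35.2% rose and 28.4% fell in DMEM, and 34.6% rose and 27.2% fell in FLI, so a share of 2 in 8 that rose is near the background. The median log2 fold change of the 8 genes was -1.46 in DMEM and -1.06 in FLI, against 0.16 and 0.18 over all tested genes. Each of these 6 genes kept its call in both media under all 28 alternatives that were fitted. Sums of the oocyte markers fell over the same step, with 6 of 9 lower in DMEM and 7 of 9 lower in FLI, and their part in the fall of the 4 genes was not tested.

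**Figure D2:**
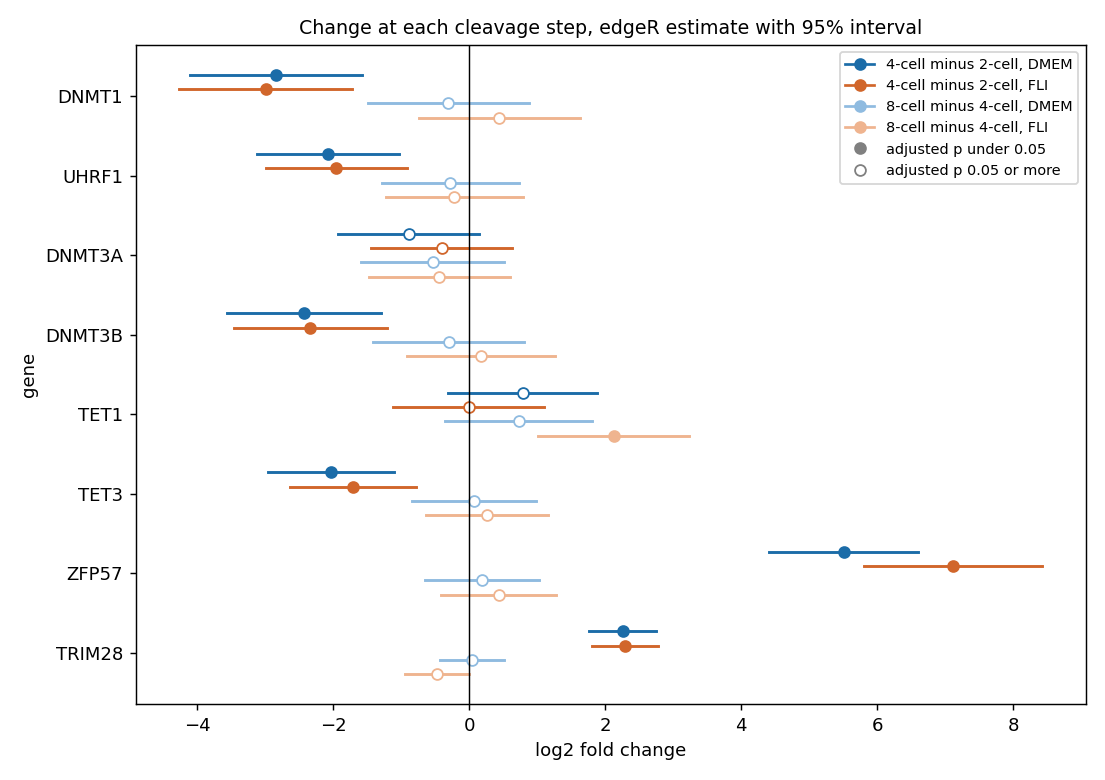
Log2 fold changes of the 8 genes from the 2-cell to the 4-cell stage (dark) and from the 4-cell to the 8-cell stage (pale) in DMEM (blue) and FLI (orange), with 95% intervals from edgeR; filled points have an adjusted p under 0.05. At the first step 4 genes lie left of 0 and 2 right of it in both media, and at the second step TET1 in FLI is the one filled point.

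Compared per length, as the TPM of the authors, which divide counts by transcript length and scale each library to the same total, DNMT1 held 93.6% ± 0.449 of the summed TPM of the 8 genes in 2-cell DMEM pools and 93.6% ± 0.079 in 2-cell FLI pools (SD, n = 3 each). Its share was 75.6% ± 5.32 and 72.0% ± 5.48 at the 4-cell stage, and 70.0% ± 10.3 and 72.0% ± 17.9 at the 8-cell stage. The sum itself dropped from 19149 ± 1012 TPM in 2-cell DMEM to 2375 ± 653 TPM in 4-cell DMEM, and from 18132 ± 1501 to 2218 ± 455 TPM in FLI (SD, n = 3 each).

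The order by mean TPM at the 2-cell stage was the same in both media: DNMT1, UHRF1, DNMT3A, DNMT3B, TET3, TRIM28, TET1 and ZFP57. In 2-cell DMEM UHRF1 had 632 ± 32.3 TPM, DNMT3A 257 ± 21.3 TPM and DNMT3B 136 ± 6.90 TPM (SD, n = 3). The neighbours DNMT3B and TET3 overlapped within FLI, where they had 129 ± 7.77 and 112 ± 17.5 TPM (SD, n = 3), and TET1 and ZFP57 were both under 5 TPM in all 2-cell pools.

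At the 4-cell stage TRIM28 had moved from the sixth to the second place, with 249 ± 35.1 TPM in DMEM and 261 ± 61.2 TPM in FLI (SD, n = 3). UHRF1 and DNMT3A followed within each other's spread, at 109 ± 26.2 and 101 ± 33.5 TPM in DMEM and at 122 ± 33.0 and 127 ± 32.2 TPM in FLI. ZFP57 had moved from last to the fifth place, with 55.3 ± 13.5 and 48.7 ± 9.34 TPM, above TET3, DNMT3B and TET1. TET3 and DNMT3B could not be told apart, at 21.6 ± 2.13 and 18.4 ± 5.63 TPM in DMEM.

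From the 4-cell to the 8-cell stage the pools of a group spread widely. DNMT1 had 5583, 2115 and 1582 CPM in 8-cell DMEM pools and 3501, 8798 and 758 CPM in 8-cell FLI pools. The range in FLI spanned the whole 4-cell range on both sides. DNMT3B had 102, 36.2 and 23.9 CPM in DMEM and 55.2, 139 and 23.6 CPM in FLI.

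UHRF1 had 273, 81.1 and 86.8 CPM in 8-cell DMEM pools and 123, 307 and 52.3 CPM in 8-cell FLI pools. DNMT3A had 168, 75.8 and 64.6 CPM in DMEM and 106, 253 and 29.1 CPM in FLI, and TET3 had 185, 70.6 and 68.2 CPM in DMEM and 123, 247 and 43.1 CPM in FLI. For all 5 genes the highest pool was DMEM replicate 1 in the DMEM group and FLI replicate 2 in the FLI group, and the lowest FLI pool was replicate 3.

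ZFP57, TRIM28 and TET1 were lowest in the pools where these 5 genes were highest. ZFP57 had 48.6, 123 and 131 CPM in 8-cell DMEM pools and 128, 54.2 and 115 CPM in 8-cell FLI pools, lowest in the same DMEM replicate 1 and FLI replicate 2. TRIM28 had 234, 301 and 274 CPM in DMEM and 243, 126 and 186 CPM in FLI, lowest in the same pools. The summed CPM of the oocyte markers was 2140, 740 and 561 in the 8-cell DMEM pools and 1283, 3404 and 282 in the 8-cell FLI pools, so it was highest in the pools that were high in DNMT1. The part of this in the 8-cell results was not tested.

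**Figure D3:**
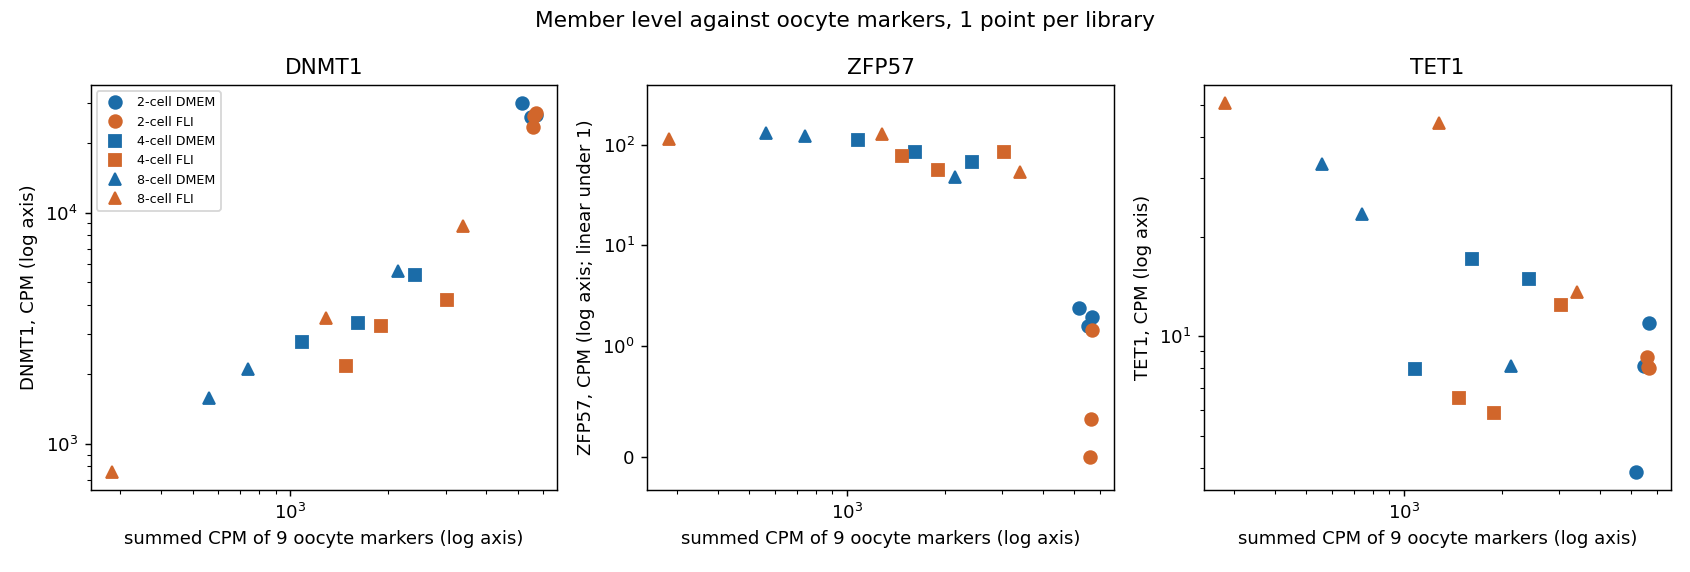
DNMT1, ZFP57 and TET1 (CPM, vertical log axes, ZFP57 linear under 1) are plotted against the summed CPM of 9 oocyte markers (horizontal log axis), 1 point per library, with circles for 2-cell, squares for 4-cell and triangles for 8-cell pools (blue DMEM, orange FLI). Among the 8-cell pools those with 2140 and 3404 CPM of markers hold the highest DNMT1 and the lowest ZFP57 and TET1 of their medium.

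In DMEM none of the 8 genes passed the test between the 4-cell and the 8-cell stage, 0 also had an unadjusted p under 0.05, and 0 passed with DESeq2 or limma voom. Of all tested genes 0% passed with edgeR. Without the 3 8-cell libraries named above, 2 8-cell DMEM pools remained, and 8-cell FLI replicate 1 was alone in its group. The log2 fold changes were then -1.055 (DNMT1), -1.08 (DNMT3A), -1.10 (DNMT3B), -0.56 (TET3) and -1.08 (UHRF1). The calls of that fit are counted in the last section, beside those over all genes. Leaving out the 2 8-cell libraries with high oocyte transcripts was a choice made after seeing the data, on a measure that moves with these genes. UHRF1 alone was then called lower (-1.08, adjusted p = 0.0206 in edgeR), with 1192 calls over all genes. In that fit 4 of the 8 genes were lower at an unadjusted p under 0.05, and the median of the 8 was -0.81. Both settings leave out DMEM replicate 1, the highest 8-cell DMEM pool for all 5 of these genes, so lower values follow from the choice.

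In FLI 1 of the 8 genes was called higher at the 8-cell stage and 0 lower, against 0.804% of all tested genes higher and 2.24% lower. This was TET1, which had 44.2, 13.6 and 50.5 CPM in the 8-cell pools against 6.50, 5.85 and 12.4 CPM in the 4-cell pools. All 8-cell pools lay above all 4-cell pools, the lowest, 13.6 CPM, by little. TET1 rose by 2.13 on the log2 scale (SE 0.53, adjusted p = 0.0394, 95% interval 1.02 to 3.23), or 4.36-fold.

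The TET1 call was lost with limma voom (adjusted p = 0.0536), in a fit of only the groups compared (adjusted p = 0.386) and in 13 of the 18 fits that left out 1 library, over which its log2 fold change stayed between 1.82 and 2.49 and its adjusted p between 0.0017 and 0.176. The call held without 2-cell DMEM replicate 1, 4-cell DMEM replicate 1, 8-cell DMEM replicate 1 or 3, or 8-cell FLI replicate 2. Leaving out 8-cell FLI replicate 2 gave 2 calls, TET1 and a lower DNMT3A (-1.42, adjusted p = 0.0303). In DMEM TET1 had 8.11, 23.5 and 33.2 CPM at the 8-cell stage, 0.72 above the 4-cell stage on the log2 scale (SE 0.51, adjusted p = 0.551). Its interaction with the medium at that step, 1.40 on the log2 scale, did not pass in edgeR (unadjusted p = 0.0699, adjusted p = 0.99999), so a step that differs by medium was not shown.

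The maturation medium was compared at each stage. None of the 8 genes passed between FLI and DMEM at the 2-cell, the 4-cell or the 8-cell stage with edgeR, DESeq2 or limma voom, and 0% of all tested genes passed with edgeR at each stage. An unadjusted p under 0.05 was reached by 1 gene at the 2-cell stage, by 0 at the 4-cell stage and by 1 at the 8-cell stage. A log2 fold change beyond 1.5 with an unadjusted p under 0.05 in edgeR was met by ZFP57 at the 2-cell stage. The study set the same numbers for its DESeq2 tests but did not say whether its p was adjusted.

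ZFP57 in 2-cell embryos was lower in FLI, with 7 counts against 32 over 3 pools each (log2 fold change -1.89, SE 0.76, 95% interval -3.49 to -0.29, unadjusted p = 0.0233, adjusted p = 1 in edgeR). The pools did not overlap, at 0, 0.336 and 1.43 CPM in FLI and 1.57, 1.92 and 2.38 CPM in DMEM, but these levels are near the limit of detection. The log2 fold change was -3.22 without 2-cell FLI replicate 1 and -1.29 without 2-cell FLI replicate 3, limma voom gave no unadjusted p under 0.05, and the gene did not pass the filter when only the 2-cell groups were fitted. TRIM28 in 8-cell embryos was lower in FLI by 0.55 on the log2 scale (SE 0.22, interval -1.01 to -0.08, unadjusted p = 0.0251, adjusted p = 0.567 in edgeR). The ranges of the pools overlapped. With DESeq2 and with limma voom 1 of the 8 genes was lower at an unadjusted p under 0.05. With library size scaling, with only the 8-cell groups fitted and without the 2 8-cell libraries with high oocyte transcripts it was 0.

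The other comparisons are given with their intervals, which use 1 spread estimate per gene from all 18 libraries. The widely spread 8-cell pools enter it, so the width at the 2-cell stage is not that of the 2-cell pools alone. With only the 2-cell groups fitted, the largest absolute difference among the 7 genes tested was 0.23 on the log2 scale. The log2 difference of DNMT1 between FLI and DMEM was -0.10 at the 2-cell stage (95% interval -1.28 to 1.08), -0.26 at the 4-cell stage (-1.44 to 0.92) and 0.49 at the 8-cell stage (-0.69 to 1.68). That of TRIM28, the gene with the least spread, was -0.06 at the 2-cell stage (-0.54 to 0.41) and -0.03 at the 4-cell stage (-0.50 to 0.43). A 2-fold difference in either direction lay within the interval of DNMT1 at the 2-cell stage, only a lower level in FLI at the 4-cell stage and only a higher one at the 8-cell stage. It lay outside the interval of TRIM28 at the 2-cell and 4-cell stages.

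**Figure D4:**
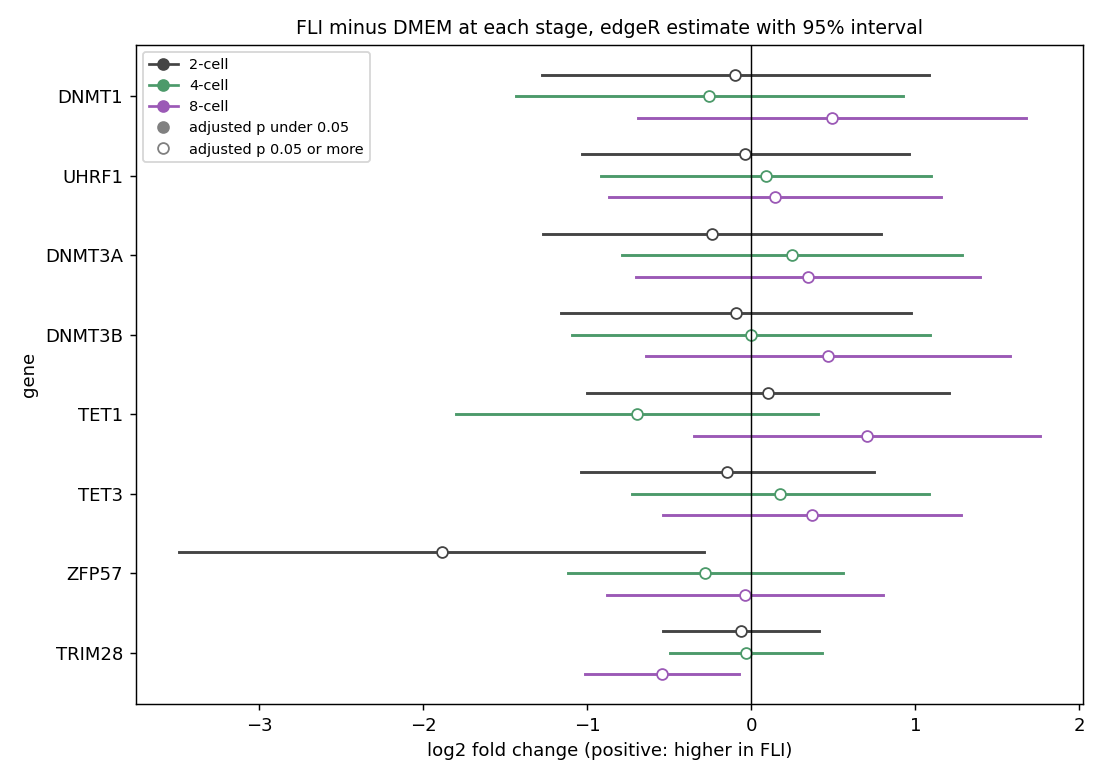
Log2 differences between FLI and DMEM for the 8 genes at the 2-cell (grey), 4-cell (green) and 8-cell (purple) stage, with 95% intervals from edgeR; positive values are higher in FLI and open points have an adjusted p of 0.05 or more. All 24 points are open, and the intervals of ZFP57 at the 2-cell stage and of TRIM28 at the 8-cell stage lie left of 0.

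Over the 3 stages together, with 9 libraries per medium, 0 of the 8 genes differed between the media with edgeR, DESeq2 or limma voom, 0 had an unadjusted p under 0.05 and 0% of all tested genes passed. The largest difference was that of ZFP57, -0.36 on the log2 scale (SE 0.27, adjusted p = 0.999, interval -0.93 to 0.21). The interaction of medium with the step from 2 to 4 cells and that with the step from 4 to 8 cells called 0 of the 8 genes with each of these tools and 0% of all tested genes with edgeR, and 0 had an unadjusted p under 0.05. The largest interaction was that of ZFP57 in the first step, 1.61 (SE 0.86, unadjusted p = 0.0789, adjusted p = 0.9999).

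The study also set 4-cell FLI beside 8-cell DMEM embryos. With DESeq2 and its own thresholds the study reported genes up and down between these groups. Here 464 of all tested genes passed with DESeq2, 24 with limma voom and 0% with edgeR. None of the 8 genes passed with edgeR, DESeq2 or limma voom, and 1 had an unadjusted p under 0.05 in edgeR. That gene was TET1, lower in 4-cell FLI by 1.42 on the log2 scale (SE 0.53, unadjusted p = 0.0148, adjusted p = 0.219). Without the same 3 8-cell libraries the log2 fold changes were 0.80 (DNMT1), 1.33 (DNMT3A), 1.09 (DNMT3B), 0.74 (TET3) and 1.17 (UHRF1). Those of TET1 and ZFP57 were -1.77 and -0.78. DMEM replicate 1, which is left out there, was the highest 8-cell DMEM pool for the former genes and the lowest for TET1 and ZFP57. The calls of that fit are counted in the last section, beside those over all genes.

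Other genes of the same pathways were read from lists chosen with earlier results of these data known, and are counted for the step from 2 to 4 cells, to which the shares of all genes above apply. Of 9 tested partners of maintenance methylation, 3 rose and 4 fell in DMEM, and 2 rose and 5 fell in FLI. PCNA, the sliding clamp that ties DNMT1 to replication, went from 2666 ± 209 to 706 ± 174 CPM in DMEM (SD, n = 3 each), which is -1.92 on the log2 scale (SE 0.42, adjusted p = 0.000761). LIG1, the ligase of the lagging strand and a partner of UHRF1, rose by 2.90 in DMEM (SE 0.26, adjusted p = 1.99e-08) and by 2.55 in FLI (SE 0.25, adjusted p = 1e-07). ZBTB24, a regulator of the CDCA7 gene, rose by 2.85 and 3.12.

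Of 8 tested partners of de novo methylation, 3 rose and 4 fell in each medium. SETD2, which trimethylates histone H3 at lysine 36, a mark that DNMT3 enzymes bind, went from 15.8 ± 3.57 to 424 ± 36.3 CPM in DMEM and from 16.98 ± 1.55 to 409 ± 77.6 CPM in FLI (SD, n = 3 each). Its log2 fold changes were 4.75 (SE 0.27, adjusted p = 7.34e-11) and 4.59 (SE 0.27, adjusted p = 1.27e-10). NSD1, which dimethylates the same residue, rose by 1.73 in DMEM and 1.99 in FLI. KDM1B, the histone demethylase needed for maternal imprints in the mouse egg, fell by 2.04 in DMEM and by 1.94 in FLI.

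Of 18 tested genes of demethylation and base excision repair, 6 rose and 3 fell in DMEM, and 8 rose and 3 fell in FLI. TDG, the glycosylase that cuts out the oxidised bases made by TET enzymes, had 0 counts in all 3 2-cell DMEM pools and 949 counts over the 4-cell DMEM pools, at least 379-fold higher from a floor of 3 counts over the 3 pools. In FLI it had 1 count over the 2-cell pools and 1031 over the 4-cell pools, a ratio of 1040 with an exact 95% counting interval of 186 to 41122. OGT, which modifies and binds TET proteins, rose by 1.98 in DMEM and 1.96 in FLI, and NEIL3, another glycosylase, fell by 2.86 and 3.11.

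Of 8 tested genes listed as readers of methylated DNA or their relatives, 3 rose and 1 fell in DMEM, and 2 rose and 2 fell in FLI. MBD3, a relative of these readers and a subunit of the NuRD complex, rose by 3.61 in DMEM (SE 0.27, adjusted p = 2.33e-09) and by 3.08 in FLI (SE 0.27, adjusted p = 1.64e-08). ZBTB33 fell by 1.02 and 0.92, and its call in FLI was lost without 4-cell FLI replicate 1 (-0.93, adjusted p = 0.0576).

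Of 16 tested imprint guards and TRIM28 corepressors, 8 rose and 4 fell in DMEM, and 6 rose and 4 fell in FLI. ATRX, a chromatin remodeller that acts with DAXX at silenced repeats and imprinted regions, rose by 1.80 in DMEM and 1.90 in FLI. DAXX rose by 1.16 and 1.34. MPHOSPH8, a subunit of the HUSH silencing complex, rose by 1.12 and 1.16. Among the genes of this list that fell, SETDB1 was lower by 2.06 in DMEM and 2.08 in FLI (adjusted p = 0.000348 and 0.000324 in edgeR). ZNF445 was lower by 1.77 and 1.82 (adjusted p = 0.000412 and 0.00034 in edgeR).

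Of 11 tested genes of methyl donor supply and use, with relatives, 5 rose and 2 fell in each medium. AHCYL1, a relative of the enzyme that clears S-adenosylhomocysteine, rose by 2.88 in DMEM and 3.31 in FLI. MTRR, which keeps methionine synthase active, rose by 1.73 and 1.28. GNMT, which consumes S-adenosylmethionine, had 0 counts over the 2-cell DMEM pools and 154 over the 4-cell DMEM pools, at least 61.5-fold higher from the same floor.

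Between the 4-cell and the 8-cell FLI pools 3 of these named genes passed, all lower at the 8-cell stage: ZBTB24 (log2 fold change -1.19, adjusted p = 0.0419), MPHOSPH8 (-0.68, adjusted p = 0.0394) and MTRR (-0.84, adjusted p = 0.0388). The calls were lost in 15, 16 and 14 of the 18 fits that left out 1 library.

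**Figure D5:**
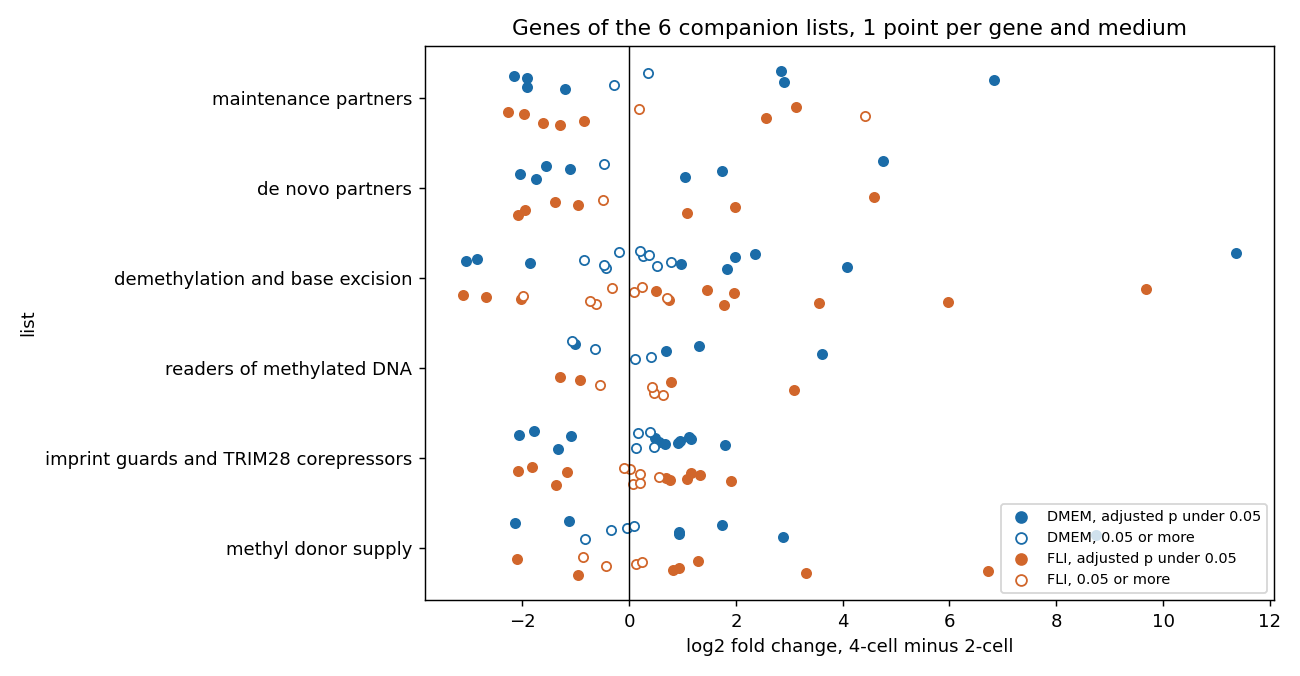
Each point is a tested gene of 1 of 6 companion lists, placed by its log2 fold change from the 2-cell to the 4-cell stage in DMEM (blue) or FLI (orange); filled points have an adjusted p under 0.05. Every list holds genes on both sides of 0, and the points farthest right are genes such as TDG and GNMT with 0 or 1 count over the 2-cell pools, whose fitted values depend on the prior count.

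Across the 18 libraries, which share stage and depth differences, the genes whose log2(CPM + 1) followed each of the 8 most closely are given as a description. The choice rests on the measure, since by Spearman's correlation only 4 of these 16 genes were again among the closest. PPFIA1 and KPNA7 followed DNMT1 (Pearson's r = 0.996 and 0.994), SUN2 and ASH2L followed UHRF1 (0.992 and 0.990), and ACVR1B and EPAS1 followed TET3 (0.992 and 0.992). WLS and TAF8 followed DNMT3B (0.990 and 0.989), and APBA1 and NUP214 followed DNMT3A (0.988 and 0.987). POLD1 and CLDN6 followed TRIM28 (0.993 and 0.993), PRRC2C and JUP followed ZFP57 (0.988 and 0.988), and ZNF260 and ROR2 followed TET1 (0.890 and 0.886).

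Among the 8 genes, DNMT1 and DNMT3B had a correlation of 0.987 and DNMT1 and TET3 one of 0.986 over the 18 libraries. DNMT3A stood further off, at 0.860 with DNMT1 and 0.853 with DNMT3B. ZFP57 and TRIM28 had a correlation of 0.958 with each other and of -0.919 and -0.905 with DNMT1.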

How the data were processed

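By the methods of the study, RNA of each pool was isolated with an RNAqueous Micro kit, made into libraries with the Pico version of a stranded SMARTer kit and sequenced on an Illumina NovaSeq. The authors mapped the reads with bowtie2, calculated expression with Illumina Dragen and tested with DESeq2, while tool versions, annotation and use of strand in counting were not given in the sources used. The build is Sscrofa11.1. The authors deposited raw counts of reads per gene and library, which were used for all tests. The TPM that the authors deposited, which divide by transcript length, were used to compare genes with each other. The CPM and RPKM columns of the authors were not used. Of rows with an ID only, 192 were named from a reference table of gene IDs.

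Groups were the combinations of stage and medium in the labels. Counts were filtered with filterByExpr, scaled by TMM and fitted with edgeR 4.0.16 (glmQLFit, glmQLFTest) in R 4.3.3, with 1 model of 6 group means over 18 libraries and, for the media over all stages, a model of stage and medium. The 95% intervals of fold changes come from the same fits. Genes were named by rule: all 8 with a row, per list up to 3 genes, taken by lowest p for 4-cell against 2-cell DMEM, list genes that passed between the media (0), and the 2 most correlated genes of each. SETDB1 and ZNF445 were named beside this rule, because the 3 genes it took from their list all rose. A gene that the rule names is not reported here. The members and lists were chosen with earlier results of these data known. Ratios within libraries used counts with a pseudocount of 1 and exact permutation tests in scipy 1.17.1.

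Alternatives were DESeq2 1.42.0, limma 3.58.1 voom, only the groups compared, DESeq2 size factors, upper quartile scaling, library size only, no filter, a replicate block, each library left out, leaving out 3 8-cell libraries that stand apart, the thresholds of the study, medians of TPM and Spearman's correlation. Leaving out the 2 8-cell libraries with high oocyte transcripts was chosen after seeing the data. No libraries of a group agreed within sampling noise.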

Additional observations from a re-analysis of the deposited data

How the results depend on the processing

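In both media the 4 falls and 2 rises between the 2-cell and the 4-cell stage kept direction and call under all 28 alternatives, with 6 or 7 of the 8 genes called. The other counts of called genes moved as follows. Between 2-cell media the thresholds of the study, read with an unadjusted p, gave 1. From 4 to 8 cells in DMEM the count was 5 without the 3 8-cell libraries and 1 without the 2 with high oocyte transcripts. From 4 to 8 cells in FLI it was 0 with limma voom, 0 with only the groups compared, 3 without the 2 libraries and 0 to 2 with 1 library left out. Between 4-cell FLI and 8-cell DMEM it was 7 without the 3 libraries and 4 without the 2. Over all genes the step from 4 to 8 cells in FLI gave 402 calls, and 1189 with DESeq2, 703 with limma voom, 0 with only those groups, 138 with no filter, 1247 without the 3 libraries, 2963 without the 2 and 0 to 2218 with 1 library left out. In DMEM the same step gave 0 calls, and 444 with DESeq2, 22 with limma voom, 2 with only those groups, 7 with DESeq2 size factors, 3 with no filter, 2003 without the 3 libraries, 1192 without the 2 and 0 to 434 with 1 left out. Between 4-cell FLI and 8-cell DMEM 0 genes became 464 with DESeq2, 24 with limma voom, 80 with only those groups, 21 with no filter, 3 with either other scaling, 2271 without the 3 libraries, 1530 without the 2 and 0 to 561 with 1 left out. The media gave at most 29 calls over all genes, at the 8-cell stage with DESeq2. With library size scaling the median of all genes from 2 to 4 cells moved from 0.16 to -0.01 in DMEM and from 0.18 to 0.05 in FLI. Same-numbered pools of the media had correlations of -0.20 to 0.36, and differently numbered pools of -0.40 to 0.43. At the 4-cell stage these ranges were 0.026 to 0.18 and -0.14 to 0.072. Whether the replicate numbers pair the samples is not settled by these values. With the replicate block 1 of the 8 genes was still called from 4 to 8 cells in FLI (TET1, adjusted p = 0.0439), with 180 calls over all genes. That block gave 1 call over all genes between 4-cell FLI and 8-cell DMEM. Of the within-library ratios, 3 moved within a medium by more than the SD of the pooled value, namely DNMT1 to DNMT3A (-1.95 in DMEM, -2.60 in FLI), DNMT3A to TET1 (-1.77 and -0.37) and UHRF1 to TET1 (-2.94 and -1.92). The cause of these changes was not tested. Some log2 fold changes took the other sign, and of these TET3 from 4 to 8 cells in DMEM without the 3 libraries passed the test (adjusted p = 0.0337). Between the media at the 4-cell stage DNMT3B was 0.0137 (only those groups), 0.0142 (upper quartile scaling), 0.0474 (library size only) and 0.0219 (no filter) and TRIM28 was 0.0411 (library size only). Between the media at the 8-cell stage DNMT3A was -0.0474 (without the 2 libraries) and ZFP57 was 0.0394 (only those groups), 0.0672 (upper quartile scaling), 0.11 (library size only) and 0.013 (without the 3 libraries). From 2 to 4 cells in FLI TET1 was 0.00281 (DESeq2). From 4 to 8 cells in DMEM TET3 was -0.17 (limma voom), -0.56 (without the 3 libraries) and -0.56 (without the 2 libraries). From 4 to 8 cells in FLI DNMT1 was -0.0547 (limma voom) and -0.60 (without the 2 libraries), DNMT3B was -0.24 (without the 3 libraries) and -0.71 (without the 2 libraries) and TET3 was -0.48 (without the 2 libraries). Between 4-cell FLI and 8-cell DMEM DNMT1 was -0.0494 (only those groups), -0.0527 (upper quartile scaling) and -0.0201 (library size only) and TET3 was -9.84e-05 (upper quartile scaling). In the interaction at the first step DNMT3B was -0.0178 (limma voom) and TRIM28 was -0.00503 (DESeq2) and -0.00513 (DESeq2 size factors). In the interaction at the second step DNMT3A was -0.0931 (limma voom) and -0.30 (without the 2 libraries) and UHRF1 was -0.0374 (replicate block) and -0.0272 (without the 2 libraries). Between the media over the 3 stages DNMT1 was -0.058 (limma voom) and -0.0818 (without the 2 libraries), DNMT3A was -0.00797 (without the 2 libraries) and TET1 was -0.0851 (without the 3 libraries) and -0.00136 (without the 2 libraries). With 1 library left out, further values took either sign. Between the media at the 2-cell stage the ranges were UHRF1 -0.0789 to 0.0406, TET1 -0.20 to 0.43 and TRIM28 -0.13 to 0.0703. Between the media at the 4-cell stage the ranges were DNMT1 -0.50 to 0.0665, DNMT3B -0.30 to 0.34, UHRF1 -0.19 to 0.27 and TRIM28 -0.17 to 0.10. Between the media at the 8-cell stage the ranges were DNMT1 -0.55 to 1.24, DNMT3A -0.59 to 0.89, DNMT3B -0.42 to 1.28, UHRF1 -0.75 to 0.94, TET3 -0.37 to 0.99 and ZFP57 -0.37 to 0.23. From 2 to 4 cells in FLI the ranges were TET1 -0.52 to 0.0624. From 4 to 8 cells in DMEM the ranges were DNMT1 -1.05 to 0.00261, DNMT3B -1.11 to 0.0456, TET3 -0.56 to 0.30, ZFP57 -0.0443 to 0.51 and TRIM28 -0.0811 to 0.13. From 4 to 8 cells in FLI the ranges were DNMT1 -0.63 to 0.98, DNMT3A -1.42 to 0.0671, DNMT3B -0.76 to 0.63, UHRF1 -1.15 to 0.24 and TET3 -0.52 to 0.72. Between 4-cell FLI and 8-cell DMEM the ranges were DNMT1 -0.25 to 0.80, DNMT3B -0.0504 to 1.11, TET3 -0.12 to 0.74 and TRIM28 -0.18 to 0.0854. In the interaction at the first step the ranges were DNMT1 -0.40 to 0.16, DNMT3B -0.21 to 0.43, UHRF1 -0.16 to 0.31 and TRIM28 -0.11 to 0.17. In the interaction at the second step the ranges were DNMT1 -0.30 to 1.49, DNMT3A -0.85 to 0.64, DNMT3B -0.42 to 1.28, UHRF1 -0.84 to 0.85, TET3 -0.55 to 0.81 and ZFP57 -0.10 to 0.50. Between the media over the 3 stages the ranges were DNMT1 -0.28 to 0.20, DNMT3A -0.15 to 0.25, DNMT3B -0.14 to 0.29, UHRF1 -0.18 to 0.27, TET1 -0.10 to 0.17 and TET3 -0.0901 to 0.28. The few counts of ZFP57 in 2-cell pools and of TET1 limit their precision, as do 3 pools per group.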
